A study of Mus musculus with 4 samples.

Results

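The RNA abundance profile of the wild-type newborn mouse lens was taken from the 2 arrays titled Wild type 1 and Wild type 2, called array 1 and array 2 below, of the 4 arrays in the series. Each array carried 45101 probe sets, of which the 45037 that are not Affymetrix control probe sets were used. Of these, 34945 carried a single gene symbol, and each of the 18193 genes they named was represented by its brightest probe set. Both samples were whole lenses of mice labelled as male, of strain 129S3, at postnatal day 0.5, with no treatment or transgene named. The other 2 arrays, of Hsf4 knockout lenses, were used only in an alternative normalisation over all 4 arrays. The labels do not say how many lenses went into a sample or that the samples came from separate animals, and n = 2 throughout, so no test was made. Several 129 substrains are known to carry a natural mutation of Bfsp2, a filament gene of the lens, and the state of that gene in these mice is not given in the labels.

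The lens is a closed epithelial vesicle with only 2 kinds of its own cells. A single layer of epithelium at the front divides, and its cells move to the equator, leave the cell cycle and elongate into fibre cells, which fill themselves with soluble crystallins, join through gap and adhesion junctions and later lose their organelles. A collagen and laminin capsule surrounds both, and in the newborn mouse a transient vessel network still covers the lens, with retina, ciliary body and iris close by.

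The alpha-crystallins Cryaa and Cryab are small heat shock proteins, and the beta- and gamma-crystallins form a second family of compact structural proteins. Promoter sequences of 4 of them are shown because crystallins filled the top of both arrays, and because the large Maf transcription factors, bound to sites that contain the letters TGCTGA, are known regulators of crystallin genes. Each is the 150 bases before the annotated start, on the gene's own strand, from the RefSeq promoter table of build GRCm38.p6, with TGCTGA or its reverse complement TCAGCA and the TATA box letters TATAAA in capitals. The windows are chr17:31677781-31677930 (plus strand) for Cryaa, chr11:77725294-77725443 (minus strand) for Cryba1, chr5:112255670-112255819 (plus strand) for Crybb1 and chr5:113081585-113081734 (minus strand) for Crybb3.
Cryaa: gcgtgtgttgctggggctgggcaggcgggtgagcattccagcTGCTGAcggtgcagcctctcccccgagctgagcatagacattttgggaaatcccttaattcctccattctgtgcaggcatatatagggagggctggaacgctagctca
Cryba1: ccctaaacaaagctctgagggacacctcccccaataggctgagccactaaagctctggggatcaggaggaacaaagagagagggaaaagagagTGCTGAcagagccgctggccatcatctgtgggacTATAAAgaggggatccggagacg
Crybb1: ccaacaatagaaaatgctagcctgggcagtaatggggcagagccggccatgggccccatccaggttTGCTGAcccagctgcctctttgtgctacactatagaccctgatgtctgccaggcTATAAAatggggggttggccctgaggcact
Crybb3: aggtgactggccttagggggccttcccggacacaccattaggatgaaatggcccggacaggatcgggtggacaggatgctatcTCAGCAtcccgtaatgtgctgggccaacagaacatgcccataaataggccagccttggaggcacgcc
The half-site began 108 bases before the start in Cryaa, 57 in Cryba1, 84 in Crybb1 and 67 in Crybb3, where it lies on the opposite strand. Over the table's windows of 250 bases before to 50 after the start, read on both strands, 9 of the 13 crystallin genes with an entry held TGCTGA (69.2%). The 4 shown are all among these 9. Crygf, Crygd, Crygb, Cryab and Crybb2 had no match, for lack of the letters or of an entry. The share was 20.3% over the 14452 measured genes with an entry and 19.5% over all 32851 promoters in the table. The letters were held by 5 of 17 windows of fibre structure genes (29.4%), 6 of 12 of neural retina genes and 5 of 39 of ribosomal protein genes (12.8%). TATAAA, likewise on both strands, was held by 4 of the 13 crystallin windows and by 11.5% of those of all measured genes. A match of letters is a description and not a bound site.

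Array 2 was the dimmer of the 2 arrays as deposited, though not for each gene. The deposited intensity had a median of 21.3 on array 1 and 10.4 on array 2, and the brightest probe set read 13227 and 8259. Levels are therefore given as deposited intensities for each array with the gene's rank on that array (1 is the brightest of 18193 genes), and a percentile of 100 stands for the brightest. A rank compares the brightness of different probe sets, which depends on how well each probe set binds as well as on how much RNA is present. As a level without target, the 95th percentile of 38 olfactory receptor genes, which are hardly expressed outside the nose, was taken on each array. It was 17.9 on array 1 and 9.29 on array 2, and is called the olfactory level.

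The 2 samples did not match in the genes that follow sex, although both are labelled as male. Xist, the RNA that coats the inactive X chromosome of females, read 918 on array 1 and 39.4 on array 2, and its 2 other probe sets were also dimmer on array 2. The Y-linked genes Eif2s3y, Kdm5d and Uty read 95.9, 34.8 and 13.9 on array 1 and 153, 36.9 and 25.4 on array 2. Uty was below the olfactory level on array 1. With both arrays brought to a shared distribution, Eif2s3y, Kdm5d and Uty were higher on array 2, by 1.59, 0.91 and 1.14 on the log2 scale. Array 1 thus carried high Xist beside weaker Y-linked signal, and whether that sample held lenses of both sexes was not tested. The arrays also stood apart in the 18S ribosomal RNA controls, of which the 5′ probe set read 2.20 and 5456. Spike-ins added to the RNA before labelling (dap, lys, phe and thr) were brighter on array 2 despite its lower scale, for example thr at 142 to 216 against 322 to 429. The ratio of the 3′ to the 5′ probe set, a sign of RNA integrity, was 1.67 and 1.51 for actin and 0.862 and 0.856 for Gapdh.

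**Figure D1:**
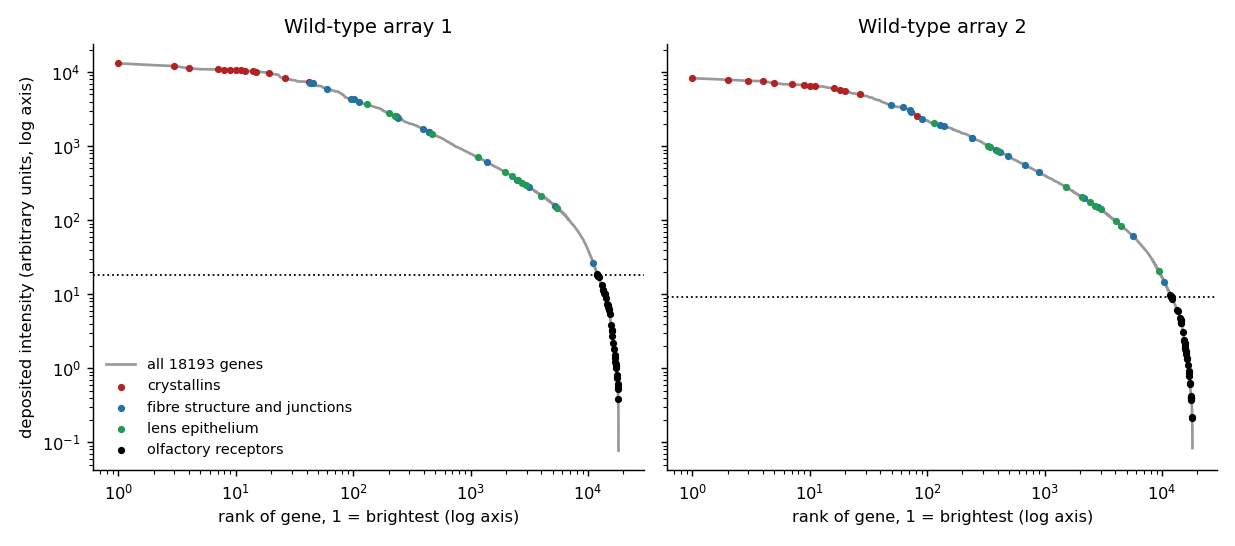
Deposited intensity (arbitrary units, log axis) against gene rank (log axis) on array 1 and array 2. The grey line is all 18193 genes, points are crystallins, fibre structure, lens epithelium and olfactory receptor genes, and the dotted line is the olfactory level, above which 66.6% of genes lay on array 1 and 66.2% on array 2.

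Crystallins took 13 of the 40 places at the top of the profile. Crygf, a gamma-crystallin of the fibre cell core, was the brightest gene on both arrays, at 13124 on array 1 and 8259 on array 2. It was read by a single probe set, with the ending _x_at, and whether that probe set also reads other gamma-crystallins was not tested. Crygd read 12058 and 7623 (rank 3 on both arrays), and Crygb 10836 and 7539 (ranks 8 and 4). Crygf and Crygd were thus among the 3 brightest genes of both arrays. Crygs, Crygn and Cryga stood lower, at ranks 10, 19 and 26 on array 1 and 11, 18 and 27 on array 2. Crygc and Cryge were not measured by a probe set of their own. One probe set annotated to both Crygc and Crygb was the brightest of all on array 1, at 13227, and the second brightest on array 2, at 8038.

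The beta-crystallins lay among the gamma-crystallins, with a single member lower. Cryba1, which by an alternative start of translation gives 2 proteins, read 11249 and 7887 (ranks 4 and 2). Crybb3 read 10752 and 7095 (ranks 9 and 5) and Crybb1 read 10291 and 6590 (ranks 14 and 10). Cryba2 and Cryba4 stood at ranks 15 and 11 on array 1 and 16 and 20 on array 2. Crybb2, a major beta-crystallin of the adult lens, read 7271 and 2572 (ranks 42 and 82) and was the lowest of the 14 crystallins and the only one outside the 40 brightest genes. It was also the crystallin that differed most between the arrays, by -0.67 on the log2 scale, array 2 minus array 1 after both were brought to a shared distribution. The others ranged from -0.20 to 0.11 on that scale. These differences depend on the scaling, since the median over the 14 genes was 0.00 here and 0.36 with each array scaled by its median.

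Cryaa read 10860 and 6811, at rank 7 on both arrays, and Cryab 10376 and 6674, at ranks 12 and 9. A second Cryab probe set read 9773 and 5563, while the remaining one read only 4.89 and 8.12, so probe sets of a single gene could lie at opposite ends of the array. All 14 crystallins were above the olfactory level on both arrays, where 61.8% of all genes were (11236 of 18193), and all 14 lay in the top 10% on both, where 8.50% of all genes did. Together they made up 3.59% of the summed intensity of all genes on array 1 and 4.36% on array 2, and the 45 measured ribosomal protein genes made up 5.51% and 6.30%. All crystallins but Crybb2 lay within or above the range of the brightest spike-in, cre, which read 8157 to 11060 on array 1 and 4503 to 6189 on array 2. Crygf, Crygd and Cryba1 lay above it on array 1. On array 2 those from Crygf at 8259 down to Crygs at 6426 did. Whether the signal still followed the amount of RNA at that level was not tested.

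**Figure D2:**
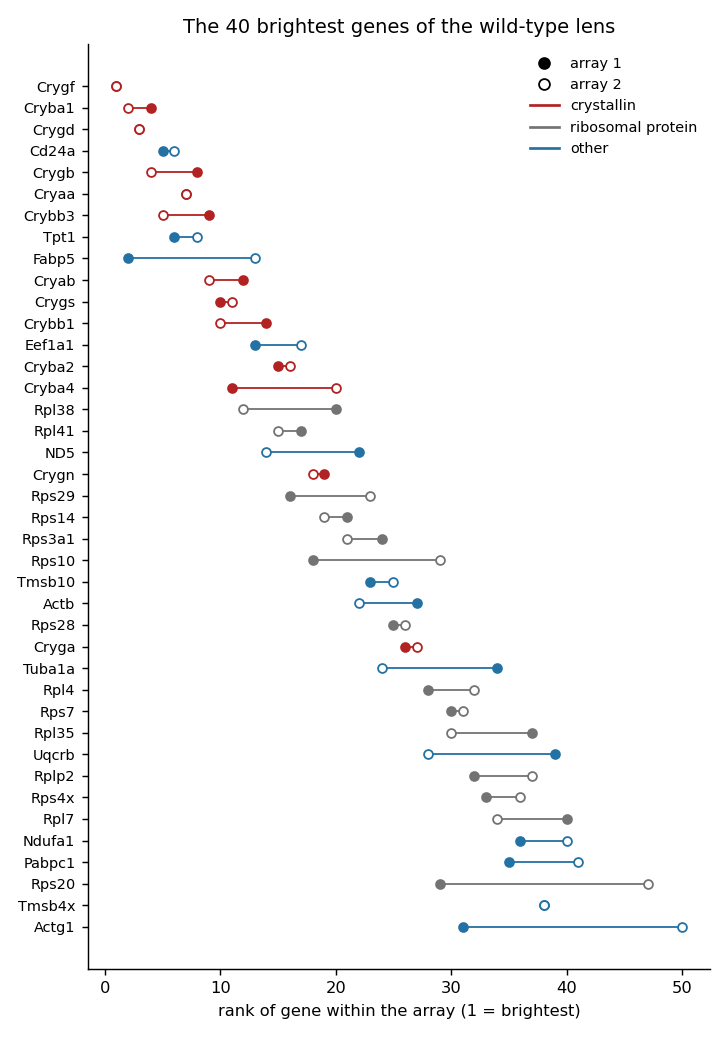
Rank within array 1 (filled) and array 2 (open) of the 40 brightest genes, 1 being the brightest, with a line joining the 2 arrays. Crystallins hold most of the upper places, and ranks differ by 19 places at most among these genes, for Actg1.

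The remaining places among the 40 brightest were held by genes of protein synthesis, the cytoskeleton and respiration, and all 40 were protein coding. Symbols of ribosomal proteins took 14 places, with Rpl38 at 9568 and 6414 (ranks 20 and 12) and Rpl41 at ranks 17 and 15 among them. Eef1a1, which brings transfer RNA to the ribosome, read 10313 and 5835 (ranks 13 and 17), and Tpt1, a growth-related protein of many cell types, 10914 and 6745 (ranks 6 and 8). Pabpc1, which binds the poly(A) tail of messenger RNA, stood at ranks 35 and 41. The thymosins Tmsb10 and Tmsb4x, which bind actin monomers, the actins Actb and Actg1, and the tubulin Tuba1a held 5 more places, between ranks 23 and 38 on array 1 and 22 and 50 on array 2. ND5, Uqcrb and Ndufa1 of the respiratory chain stood at ranks 22, 39 and 36 on array 1 and 14, 28 and 40 on array 2.

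The other 2 genes of the 40 are known neither as lens structural proteins nor as parts of the general machinery. Cd24a, a small glycosylated surface protein known from immune and neural progenitor cells, read 10947 and 6850 (ranks 5 and 6). Fabp5, a carrier of fatty acids known from skin, read 12401 and 6382 (ranks 2 and 13). Both lay among the 13 brightest genes on each array, level with the crystallins. None of the 40 came from the list of fibre structure genes, which entered among the 100 brightest with 5 members. The 100 brightest genes made up 17.3% and 19.7% of the summed intensity and the 1000 brightest 52.5% and 55.9%.

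Genes of fibre structure followed the crystallins closely. All 18 measured members were above the olfactory level on both arrays and 14 lay in the top 10% on both, with a median percentile of 98.7 on array 1 and 98.3 on array 2. Lim2, a fibre membrane protein, read 7155 and 3550 (ranks 44 and 49). Bfsp1, which encodes filensin of the beaded filament, read 7188 and 3034 (ranks 43 and 71), and Mip, the fibre water channel aquaporin 0, read 5949 and 2933 (ranks 60 and 73). The 5 markers Cryaa, Cryba1, Crygd, Bfsp1 and Mip therefore all lay in the top 10% on both arrays, and the label of lens tissue fits the arrays.

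The beaded filament and the junctions did not hold uniform ranks. Vim, the filament protein vimentin of epithelium and fibres, read 7053 and 3348 (ranks 45 and 62), but Bfsp2, the partner of filensin, only 281 and 199 (ranks 3148 and 2148). The membrane skeleton genes Sptbn1 and Sptan1 stood at ranks 102 and 241 on array 1 and 129 and 242 on array 2. Gja3, the fibre connexin 46, read 4315 and 1864 (ranks 96 and 140). Tdrd7, an RNA granule protein whose loss causes cataract, was higher than the connexin on array 2, at 3987 and 2337 (ranks 113 and 91). Cdh2, N-cadherin of fibre cell contacts, read 2455 and 554 (ranks 238 and 687) and was the only member at least 2-fold apart between the arrays (log2 -1.18). Dnase2b, the nuclease that degrades fibre cell nuclei, stood at ranks 1367 and 899. The lowest were Tmod1, which caps actin filaments, at 154 and 60.3, and the water channel Aqp5 at 26.1 and 14.7.

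Epithelial genes ranked lower than fibre genes, with median percentiles of 88.5 and 87.5. All 12 were above the olfactory level on both arrays and 4 lay in the top 10% on both. Aldh1a1, which makes retinoic acid, was the brightest at 3690 and 2024 (ranks 130 and 114). Gja1, connexin 43 of epithelial gap junctions, read 2535 and 1011, and Sfrp1, an inhibitor of Wnt signalling, 2785 and 857. Pax6, the transcription factor required for eye formation, read 1478 and 974 (ranks 469 and 340). The adhesion gene Cdh1, E-cadherin of the epithelium, stood below Cdh2 on both arrays, at ranks 2968 and 4041. Foxe3, a transcription factor of the lens epithelium, was the lowest at 146 and 20.4 (ranks 5487 and 9406). A whole lens holds far more fibre than epithelial tissue, and in bulk RNA fewer cells of a kind and less RNA per cell cannot be told apart.

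All 17 lens transcription factors were above the olfactory level on both arrays, yet only 3 lay in the top 10% on both. Maf, the large Maf factor that drives crystallin genes, was the brightest at 3185 and 999 (ranks 171 and 333). Prox1, needed for fibre elongation, read 359 and 307 (ranks 2470 and 1378), and Sox1 846 and 186 (ranks 916 and 2283). Hsf4, the gene removed in the other arrays of the series, read 767 and 99.3 (ranks 1041 and 3959), a log2 difference of -1.77 from its single probe set. Pitx3, a cataract gene, and Foxe3 each differed by a log2 of -1.27, so 4 of the 17 factors were 2-fold or more dimmer on array 2, as were 3.21% of all genes compared (415 of the 12922 above the olfactory level on at least 1 array). Gata3 was the lowest of the list at 53.1 and 14.8.

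Among the 17 capsule genes, all were above the olfactory level on both arrays and 6 lay in the top 10% on both. Over all genes these shares were 61.8% and 8.50%. Sparc, a collagen-binding matrix protein whose loss causes cataract, read 5493 and 2283 (ranks 71 and 94). Col4a1, a basement membrane collagen chain, read 5760 and 1673 (ranks 63 and 167), and Nid1, which links collagen and laminin, 2371 and 802. Col4a3 and Col4a4, chains of a later basement membrane network, were far lower than Col4a1, at 56.8 and 104 on array 1 and 37.1 and 150 on array 2. The laminin chains ran from Lamb1, at 641 and 313, down to Lamb2, at 74.9 and 9.74. Of the 17, 15 were lower on array 2 after normalisation, with a median log2 difference of -0.50. Over all 12922 genes compared, 6214 were lower on array 2 and 6703 higher, with a median of 0.03.

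**Figure D3:**
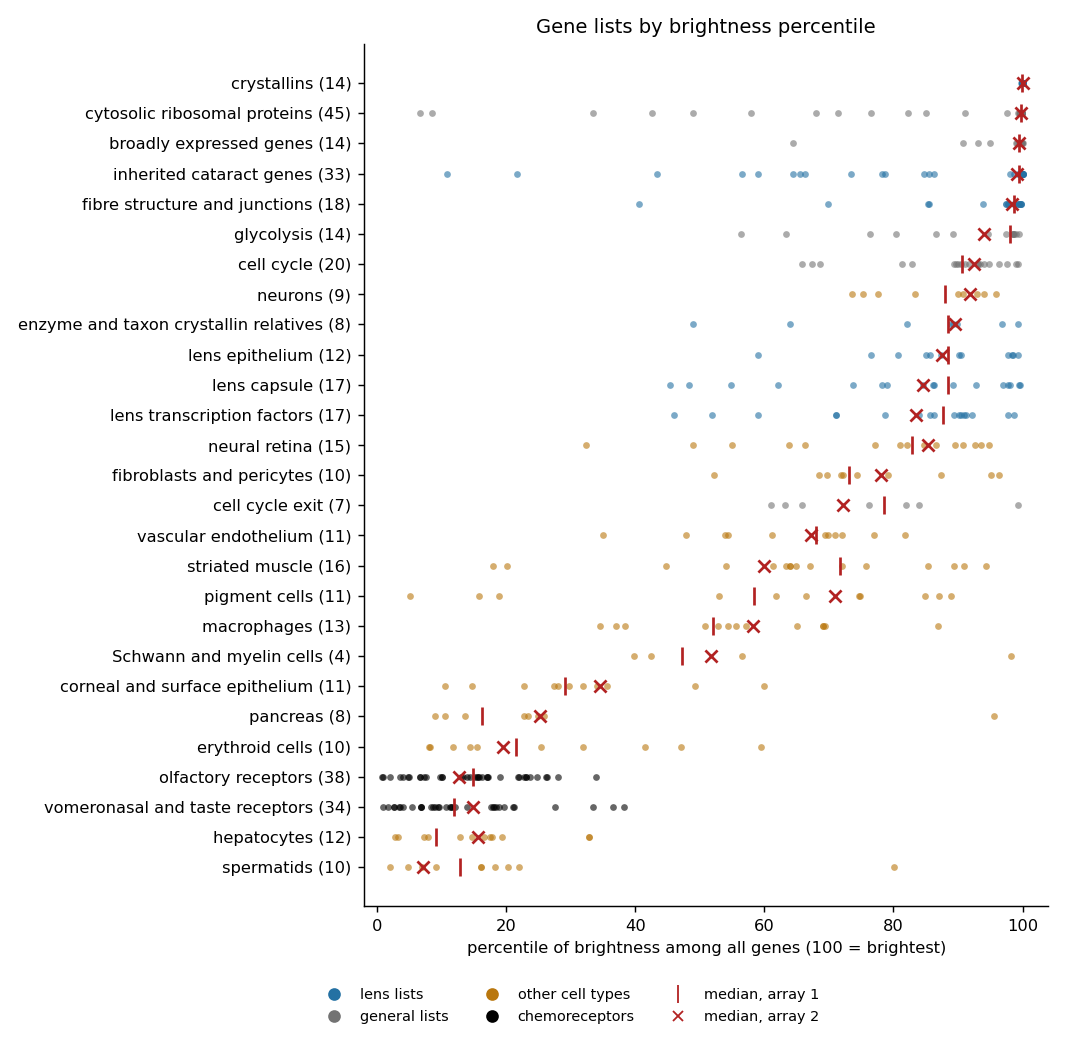
Percentile within each array (100 is the brightest of 18193 genes) of the members of each gene list, 1 point per gene at its mean over the arrays, with the list median on array 1 (bar) and array 2 (cross). Crystallins, fibre structure and ribosomal protein lists lie at the right edge, and hepatocyte, spermatid and olfactory receptor lists at the left.

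Genes known from inherited cataract were mostly bright. Of 38 listed, 33 were measured, 31 were above the olfactory level on both arrays and 19 lay in the top 10% on both. Over all genes these shares were 61.8% and 8.50%. The list overlaps those above, with 11 crystallins among the 33. Outside them, Chmp4b, a membrane-sorting protein, read 1499 and 1187 (ranks 460 and 275), and the monocarboxylate transporter Slc16a12 read 214 and 102. The lowest were Tmem114, a membrane protein, at 1.87 and 1.81, and Unc45b, a myosin chaperone, at 13.4 and 2.43, both below the olfactory level on both arrays. Of the relatives of enzymes recruited as crystallins in other animals, all 8 were above the level, with the glutamine synthetase gene Glul at 1451 and 545 next to Aldh1a1, and Cryl1 the lowest at 67.1 and 16.0.

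Genes of cell division were bright on both arrays. All 20 members were above the olfactory level on both arrays and 11 lay in the top 10% on both. Over all genes these shares were 61.8% and 8.50%. Ccnd1, cyclin D1, read 3875 and 1888 (ranks 117 and 134), and the replication clamp Pcna 2434 and 2123 (ranks 239 and 105). Mki67, the proliferation antigen, read 668 and 418. Among 7 genes of cell cycle exit, Cdkn1c, the inhibitor p57 known from newly forming fibre cells, was as bright as cyclin D1, at 4374 and 1802 (ranks 93 and 148). Cdkn1b, the related inhibitor p27, read 939 and 71.8, a log2 difference of -2.43. Its other probe set was below the olfactory level on both arrays, at 14.9 and 8.30, and bears neither way on that difference.

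Genes that most cells use were near the top. The 45 ribosomal protein genes had a median percentile of 99.7 on both arrays, with 42 above the olfactory level and 33 in the top 10% on both. The exceptions were Rpl39l and Rpl3l, relatives of limited tissue range, and Rps16, whose probe set of its own read 5.61 and 0.227 while one annotated to Rps16 and 2 near copies read 9524 and 5047. The 14 glycolysis genes had median percentiles of 98.1 and 94.0. Pgk1 read 4476 and 1877, Ldha 3489 and 1217, Aldoa 3131 and 1130, and Tpi1 3285 and 906. Glycolysis is the main energy source of organelle-free fibres. Eno2 was the lowest of the list, at 121 and 19.0. After normalisation 12 of the 14 genes were lower on array 2, with a median log2 difference of -0.57. Of all 12922 genes compared 6214 were lower, with a median of 0.03, and a difference between 1 array and another has no replicate check.

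Naming by single symbols left bright RNAs out of the gene ranks. Of the 100 brightest probe sets, 53 carried 1 symbol, 36 several and 11 none. Ribosomal genes with near-identical copies, such as Rpl23, Rpl5 and Rpl26, were among those with several. So were the alpha-globins: 2 probe sets annotated to both Hba-a1 and Hba-a2 read 8173 and 7370 on array 1 and 4919 and 5718 on array 2. A probe set of 4 beta-globin symbols read 6439 and 3638. Globin signal was thus among the brightest of both arrays, although by single-symbol probe sets only 3 of 10 erythroid genes were above the olfactory level on both, the highest being Alas2 at 56.0 and 60.3.

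Long non-coding RNAs were dim as a class. Of 1458 measured, 235 were above the olfactory level on both arrays (16.1%) and 11 lay in the top 10% on both, against 10943 of 16473 protein-coding genes (66.4%) and 1533. The brightest were Malat1 at 2893 and 1583 (ranks 189 and 185), Norad at 2649 and 1000 and Gas5 at 1641 and 1170, all of them known from many tissues. Prox1os, transcribed opposite the fibre regulator Prox1, read 1648 and 968 (ranks 415 and 343), higher than Prox1 itself on both arrays. These 4 were chosen after their values were seen. Which strand each of these 2 probe sets reads was not given in the sources used here.

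Markers of tissue next to the lens were present on both arrays, with median percentiles of 68.1 on array 1 and 63.9 on array 2 and a wide spread between lists. Over 10 lists of such cells, 86 of 110 genes were above the olfactory level on both arrays (78.2%) and 10 lay in the top 10% on both (9.09%), against 61.8% and 8.50% of all genes and 89 (97.8%) and 42 (46.2%) of 91 genes in the lens lists. The share in the top 10% was thus near that over all genes. Neuronal genes were the highest, with median percentiles of 88.0 and 91.9, beside 88.5 and 87.5 for the lens epithelium list. All 9 were above the level and 3 in the top 10%, among them the neurofilament gene Nefl at 895 and 573 and the growth cone gene Stmn2 at 578 and 516. The 15 retina genes had median percentiles of 82.9 and 85.4, and 14 were above the level. They were led by Neurod1, a factor of photoreceptor and amacrine precursors, at 924 and 385, and Neurod4 at 630 and 390. Lhx2 read 919 and 229 and Otx2, a factor of photoreceptors and pigment epithelium, 555 and 235. Photoreceptor genes were spread over the ranks. Nrl, the rod factor, read 437 and 238, Crx, a factor of rods and cones, 341 and 144, and Sag, the rod arrestin, 186 and 179, while Rcvrn was at 53.5 and 20.2 and Gngt1 at 19.4 and 7.64. The part that retinal or neural tissue took in the profile was not tested.

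After normalisation muscle genes were brighter on array 1 and most pigment cell genes on array 2. Of 16 striated muscle genes 14 were above the olfactory level on both arrays, where 61.8% of all genes were. Skeletal actin Acta1 read 1383 and 280, the myosin light chain Myl1 741 and 188 and cardiac actin Actc1 678 and 161. As deposited, the 16 genes summed to 4830 on array 1 and 1130 on array 2, against 4077800 and 2062357 for all genes. All 15 muscle genes compared were lower on array 2 after normalisation, with a median log2 difference of -0.92, against 0.03 over all genes compared. The muscle regulators Myog and Myod1 were not above the level on both arrays. Array 1 thus carried more muscle signal. Of 11 pigment cell genes, 8 were above the level on both arrays, not far from the 61.8% of all genes. They were led by the melanosome gene Pmel at 398 and 237, the pigment cell factor Mitf at 306 and 229 and the melanin synthesis gene Dct at 245 and 222. Tyr, the enzyme tyrosinase, read 63.0 and 67.2. After normalisation 7 of the 8 pigment cell genes compared were higher on array 2, with a median log2 difference of 0.73. As deposited, Pmel, Mitf and Dct all read lower on array 2. Rpe65, which marks mature pigment epithelium, was at 1.11 and 0.663. All 10 fibroblast and pericyte genes were above the level, with Rgs5 of pericytes at 1261 and 506 and Col3a1, a fibrillar collagen, at 725 and 544. They were divided between the arrays after normalisation, with 6 higher and 4 lower on array 2 and a median of 0.51. The part of these tissues in the differences between the arrays was not tested.

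Vessels and macrophages gave weaker signal. Of 11 endothelial genes 10 were above the level, led by the tight junction gene Cldn5 at 314 and 103. After normalisation 9 of the 11 were lower on array 2, with a median log2 difference of -0.46, against 0.03 over all genes compared. Of 13 macrophage genes 12 were above the level, led by the growth factor receptor Csf1r at 387 and 171. None of either list was in the top 10% on both arrays. Over all genes the shares were 61.8% above the level and 8.50% in the top 10%. Among 4 Schwann and myelin cell genes Pmp22 stood apart at 1987 and 979 (ranks 316 and 338), while Sox10, which defines that lineage, read 23.2 and 14.8. Corneal and surface epithelium was near the level without target, with 2 of 11 genes above it on both arrays. Its keratins Krt5 and Krt14 read 84.7 and 53.7 on array 1 and 1.81 and 0.657 on array 2, so both were above the olfactory level on array 1 alone.

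Genes of tissues that cannot be dissected with a lens were at the bottom of the profile, apart from 2. Of 30 genes of hepatocytes, spermatids and pancreas, 2 were above the olfactory level on both arrays (6.67%). Odf2, named for the sperm tail but also part of centrosomes, was 1 of them, at 231 and 117. The other was Gcg, the glucagon gene, which was in the top 10% on both arrays, at 845 and 552 (ranks 919 and 692), from its only probe set. The 12 hepatocyte genes had median percentiles of 9.12 and 15.6 and none was above the level on both arrays. The serum albumin gene Alb was the highest on array 1, at 18.9 and 8.21, and Apoh, an apolipoprotein of the blood, on array 2, at 0.961 and 9.70. Olfactory receptors had medians of 4.62 and 1.77 in deposited intensity. The dimmest genes were Zfp353-ps, a pseudogene, at 0.110 and 0.0836, then Clec4b1, Irs3, Ifi204 and Rdh1. A low value does not give the amount of RNA, and 5271 genes were below the olfactory level on both arrays.

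Ranks on the 2 arrays were close, more so at the top. Spearman's rank correlation across the 18193 genes was 0.940, which are not independent replicates. It was 0.933 over the 11236 genes above the olfactory level on both arrays and 0.257 over the 5271 below it on both. The 5271 were chosen by the same values that are correlated, which narrows their range and by itself lowers the correlation. The arrays shared 8 of their 10 brightest genes, 83 of the 100 brightest and 845 of the 1000 brightest. At the other end they shared 1 of the 10 dimmest, 7 of the 100 dimmest and 295 of the 1000 dimmest. Which genes were brightest was therefore mostly repeatable, and which were the 1000 dimmest mostly not. Within the brightest 10% of genes the median rank difference was 179 places, against 589 in the next 10%. The median log2 difference was much the same in both, at 0.29 and 0.31 in size. Rank differences did not grow steadily towards the dim end, with a median of 2196 places in the ninth 10% and 1022 in the dimmest 10%.

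**Figure D4:**
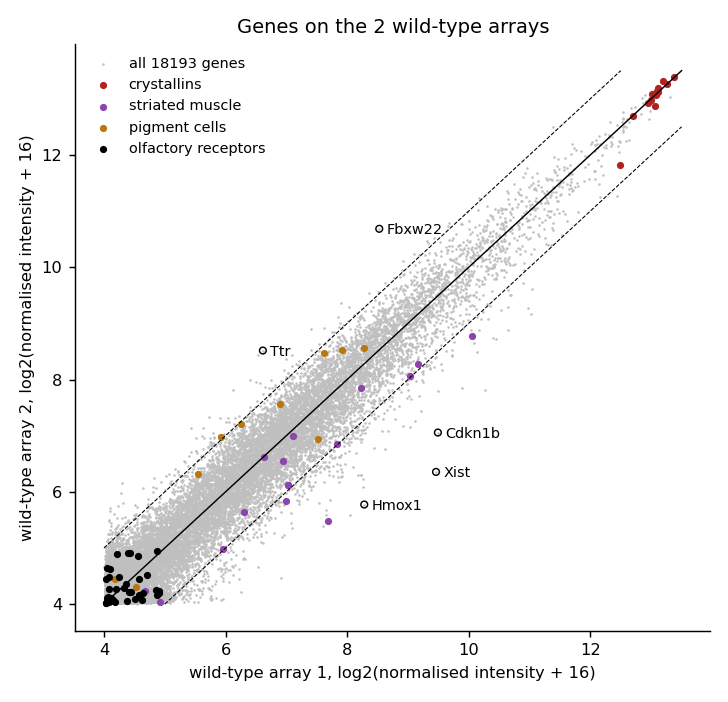
Log2(normalised intensity + 16) of each of 18193 genes on array 2 against array 1, with equality as the solid line and 2-fold differences as dashed lines. Crystallins gather at the upper end near the solid line, muscle genes lie below it and most bright pigment cell genes above it.

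Of 12922 genes above the olfactory level on at least 1 array, 603 were 2-fold or more apart after normalisation with an offset of 16, of which 415 were brighter on array 1 (3.21%) and 188 on array 2 (1.45%). The count rests on the offset, at 1831 with an offset of 1 and 122 with an offset of 64. With median scaling in place of quantile normalisation it was 666, of which 528 were brighter on array 1 and 138 on array 2. A difference between 1 array and another has no replicate check. The genes with the largest differences are therefore given as values only.

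Xist differed most, by a log2 of -3.11. Hmox1, which breaks down haem and responds to oxidative stress, read 400 and 23.0 (-2.51), and Slc16a3, which exports lactate, 252 and 19.2 (-2.07). The collagen receptor Ddr1 read 1601 and 134, and its 4 brightest probe sets all differed by -1.10 to -2.44, while the median over all 8, of which 4 were dim, was -0.49. Rian, an imprinted non-coding RNA, had -2.45 and a median of -0.14 over its probe sets. Rcor2, a corepressor of chromatin, Ap2a1, an adaptor of endocytosis, Zc3h7b and the neonatal muscle myosin Myh8 were also brighter on array 1, with log2 differences of -2.45, -2.20, -2.18 and -2.20. Rcor2 read 4.34 on array 2, below the olfactory level, and its difference was -1.27 with an offset of 64. That of Zc3h7b was -1.14 with the median over its probe sets. On array 2 the largest was Fbxw22, an F-box protein, at 476 and 1132 (2.16). Ttr, the thyroxine carrier made in the pigment and ciliary epithelium of the eye, read 114 and 228 (1.90), and its 4 probe sets all lay between 1.41 and 2.43. C130071C03Rik had 1.90, and the median over its probe sets was 0.62. Col8a1, of the basement membrane of the corneal endothelium, had 1.71, while its 2 other probe sets gave 0.27 and, below the olfactory level on both arrays, 0.07. Snx16, Sesn3, a stress-response gene, and Lyz1, a lysozyme, had 1.69, 1.60 and 1.59, and other probe set rules took Snx16 to 0.48 or less, Sesn3 to 0.83 and Lyz1 to -0.29. Tnmd of tendon, Trmt61a, a transfer RNA methylase, and Kera of the cornea read 4.84, 4.55 and 1.41 on array 1, below the olfactory level. Their differences of 1.86, 1.70 and 1.61 are therefore set by the offset, and were 0.82, 0.72 and 0.62 with an offset of 64.

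**Figure D5:**
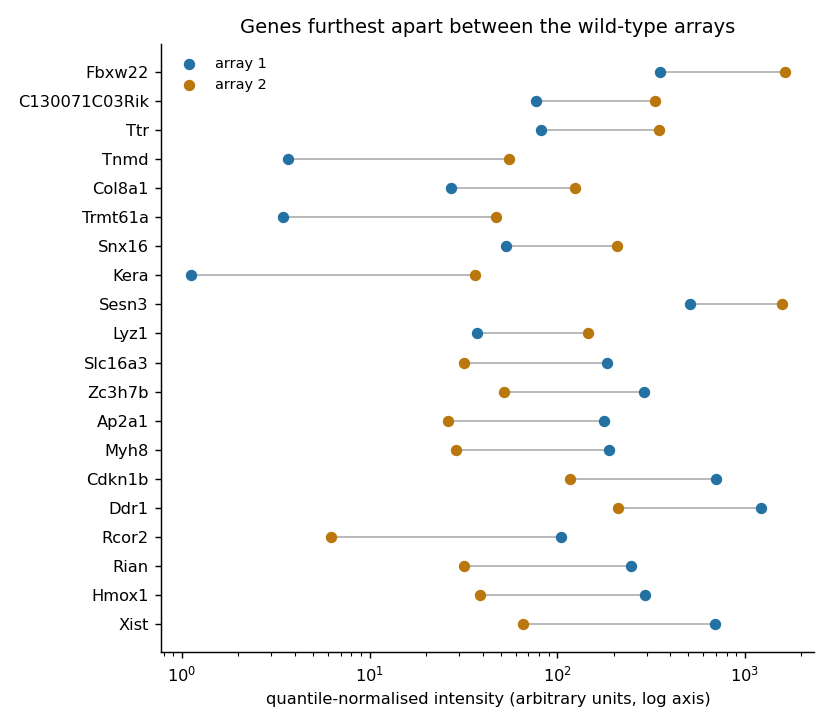
Quantile-normalised intensity (arbitrary units, log axis) on array 1 and array 2 of the 10 genes with the largest log2 difference in each direction, 1 point per array. The upper 10 genes are brighter on array 2 and the lower 10, down to Xist, on array 1.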

How the data were processed

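RNA of lenses was hybridised to Affymetrix mouse arrays. Per the labels' protocols, RNAlater preserved the lenses, RNA was isolated on columns with DNase, and biotin-labelled target was made from oligo-T7 cDNA. Each probe set has 1 intensity per array as deposited by the authors, linear and not normalised between arrays. Which software summarised the probes was not given in the sources used here.

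Both wild-type arrays were quantile normalised together and converted to log2(intensity + 16), with Python 3.11.15, numpy 2.4.6 and pandas 2.3.3. After 64 control probe sets were left out, a gene was its probe set of highest mean log2 value among those with exactly 1 symbol in the platform annotation (932 probe sets had several symbols and 9160 none). Ranks used single arrays. No test was made. The procedure was tried on simulated data with less noise than between these arrays and with shifts only in bright probe sets. That trial does not measure how often the differences called here are wrong. The number of arrays limits the precision.

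The members, the 27 gene lists and the rule for named genes were chosen with earlier results of these data known. The rule took the 40 brightest genes, all crystallins and markers, the 4 highest and 2 lowest of each list, the 10 largest array differences in each direction and the 5 dimmest genes. Other list members, the non-coding RNAs, the control and sex-linked genes and the probe sets with several symbols were named after their values were seen. Promoter windows came from RefSeq (GRCm38.p6). Alternatives were other probe set rules, scalings, offsets and levels, and each array alone.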

Additional observations from a re-analysis of the deposited data

How the results depend on the processing

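No paired analysis was possible because only 1 group was described and no result comes from a test. Spearman's rank correlation across genes was 0.922 with the median of all probe sets of a gene, 0.927 with only probe sets whose identifier ends in a plain _at, and 0.888 over all non-control probe sets. With the plain probe sets 15 of the 40 brightest genes were kept, and the median percentile of the ribosomal protein list went from 99.7 to 58.3, because its bright probe sets carry other endings. Members of the hepatocyte, spermatid and pancreas lists above the olfactory level numbered 1 with the plain probe sets. They numbered 4 on either array alone: Apoh, Gcg, Ins2 and Odf2 on array 2, and Alb, Apoa2, Gcg and Odf2 on array 1. Genes 2-fold apart numbered 1831 with an offset of 1, 780 brighter on array 2 and 1051 on array 1, and 122 with an offset of 64, 28 and 94. With the median of all probe sets 119 were brighter on array 2. Of the 603, 589 were also among those with an offset of 1 and 550 among those with median scaling. The median differences of the muscle, pigment, fibroblast, capsule and glycolysis lists kept their sign under each scaling and offset, for muscle between -0.61 and -1.07. Lyz1, at 1.59, was -0.29 with the plain probe sets. Of the other recomputed values of the 20 genes with the largest differences, over 6 settings, 108 kept their direction and side of 2-fold and 10 fell below 2-fold. Of the recomputed list medians, 79 stayed within the standard deviation of the 2 array medians and 29 did not. Medians from each array alone always lie within it, so their place among the 79 shows nothing. Genes below the olfactory level have no usable order, and no value has more than 2 arrays behind it.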

Other observations

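Several bright genes without an assigned role were chosen after their values were seen. The transcribed pseudogene 2610005L07Rik read 1945 and 893 (ranks 329 and 381), Gm12338 read 1718 and 842 (ranks 392 and 413) and BC031181 read 886 and 681 (ranks 864 and 531). AY036118, a non-coding RNA, read 621 and 735 (ranks 1340 and 492), brighter on array 2 even before normalisation, with a log2 difference of 1.20.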
